A study of Mus musculus with 12 samples.

Results

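Motile cilium and axoneme genes were followed through RNA-seq libraries of sorted projection neurons of the young mouse neocortex. The members were taken by symbol from the deposited table of TPM values (a level of transcript scaled for transcript length and to the same total in every library). All symbols that begin with Cfap, Dnah, Dnaaf, Dnai, Rsph, Drc, Tekt or Spag followed by a number were included, which gave 103 genes, and Dynlrb2, Pifo, Lrrc46, Tmem212, Dynlt4, Odf3b and Ppp1r32 were added by name. The set held 110 of the 56734 genes in the table. It was chosen because genes of this kind had measured levels that differed between layer 2 and layer 3 in these same libraries, so the layer differences of the members are given as a description, without a test.

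The motile cilium is a beating projection of ependymal, airway and oviduct cells, and its core, the axoneme, is shared with the sperm tail. Outer doublet microtubules carry dynein arms, the motors, whose heavy, intermediate and light chains are put together in the cytoplasm by assembly factors. Radial spokes, the central apparatus and the nexin-dynein regulatory complex control the beat, and tektins and other inner proteins stiffen the doublets. In the brain these genes are known mainly from the ependymal cells that line the ventricles, while a cortical neuron carries a primary cilium that lacks the beating machinery. The transcription factor Foxj1 switches the program on, and RFX factors bind X-box elements in many of its promoters.

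The study set layer 2 beside layer 3 cortical projection neurons (CPN in the labels) of pups at 3 and at 7 days after birth, written P3 and P7. All 12 libraries came from wild-type mouse cerebral cortex, with 3 libraries for each layer at each age. In every group the cells carried mCherry, a red fluorescent protein delivered by electroporation of the embryo in utero at a chosen time, and were micro-dissected and then sorted by fluorescence, with 2 to 3 pups pooled for each library. Such labelling marks the offspring of the cells that took up DNA at the ventricle, and the layer rests on the timing and not on a gene that only that layer uses. Sex and strain were not given in the labels.

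Every library held transcripts of Tubb3, a neuronal tubulin, at 1375 to 2513 TPM, and of Slc17a7, the glutamate transporter of cortical excitatory neurons, at 18.8 to 35.3 TPM at P3 and 129 to 342 TPM at P7. The P3 layer 2 libraries also held markers of radial glia, the stem cells of the embryonic cortex, at a summed 4425 to 7172 TPM, more than the 2228 to 3076 TPM of 10 projection neuron markers. In P3 layer 3 the order was the other way, at 764 to 1995 TPM for radial glia and 3798 to 4422 TPM for projection neuron markers. Fabp7, a radial glia lipid carrier, alone gave most of the radial glia sum in every P3 library, so these sums mainly compare that gene with the neuron markers. Between the layers at P3, 5 of the 10 projection neuron markers were called lower in layer 2 and 0 higher. In that limma fit of all genes together, 4.18% of all genes were called lower and 4.87% higher. The P3 layer 2 libraries thus held radial glia transcripts beside those of projection neurons, and the share of each cell type was not tested. Each library held between 15349 and 16948 genes at 1 TPM or more. TPM keeps no read totals, so the depth behind each value is unknown and no counting interval can be given.

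Promoters, from 250 bases before to 50 bases after the start, were read from RefSeq sequences on the GRCm38.p6 build for the members that the sequence table names, because the RFX element is the best known shared feature of these genes. The X-box was searched on both strands in a 14-base form, GTNNCCNNNGNAAC, and in a 13-base form with 1 base less between its arms, GTNNCCNNGNAAC, which was added after the Dynlrb2 promoter had been read. Dynlrb2 and Pifo are shown as members high in P3 layer 2, Cfap45 as a doublet inner protein with the same pattern, and Cfap20dc as a member whose P3 layer ranges overlapped and that was higher at P7. Capitals mark the matches.
Dynlrb2: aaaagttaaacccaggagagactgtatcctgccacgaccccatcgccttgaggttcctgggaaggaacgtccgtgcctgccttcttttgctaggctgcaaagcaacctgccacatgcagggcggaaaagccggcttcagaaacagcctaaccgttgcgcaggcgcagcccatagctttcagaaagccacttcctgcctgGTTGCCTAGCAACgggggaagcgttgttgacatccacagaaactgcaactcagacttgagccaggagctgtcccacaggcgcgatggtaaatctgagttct
Pifo: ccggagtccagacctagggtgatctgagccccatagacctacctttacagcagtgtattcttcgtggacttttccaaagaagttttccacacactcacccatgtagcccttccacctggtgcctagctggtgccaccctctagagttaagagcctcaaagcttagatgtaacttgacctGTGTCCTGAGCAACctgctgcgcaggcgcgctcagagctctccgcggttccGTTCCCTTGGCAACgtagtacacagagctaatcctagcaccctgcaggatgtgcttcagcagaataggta
Cfap45: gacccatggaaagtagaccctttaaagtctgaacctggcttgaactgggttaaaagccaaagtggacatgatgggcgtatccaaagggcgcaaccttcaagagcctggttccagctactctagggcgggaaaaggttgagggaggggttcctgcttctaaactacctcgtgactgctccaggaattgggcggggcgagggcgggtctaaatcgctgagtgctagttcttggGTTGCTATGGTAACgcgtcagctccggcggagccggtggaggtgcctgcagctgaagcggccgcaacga
Cfap20dc: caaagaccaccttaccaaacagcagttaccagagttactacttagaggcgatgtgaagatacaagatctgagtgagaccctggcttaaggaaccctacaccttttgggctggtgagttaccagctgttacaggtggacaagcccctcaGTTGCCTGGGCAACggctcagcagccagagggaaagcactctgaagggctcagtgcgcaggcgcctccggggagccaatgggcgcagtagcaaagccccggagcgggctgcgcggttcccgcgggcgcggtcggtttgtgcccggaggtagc
The Dynlrb2 promoter lies on the plus strand at chr8:116504765-116505064, and its 13-base match runs from 51 to 39 bases before the start. The Pifo promoter lies on the minus strand at chr3:106001448-106001747, is one of those listed for the gene, and holds 2 matches, from 71 to 58 and from 20 to 7 bases before the start. The Cfap45 promoter lies on the plus strand at chr1:172520880-172521179, with its match on the opposite strand 19 to 6 bases before the start. The Cfap20dc promoter lies on the minus strand at chr14:8666241-8666540, with its match 102 to 89 bases before the start.

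Matched sites of other members are written 5′ to 3′ on the gene's strand to show the letters behind the counts. The arms are shared because the search fixed them, and the listed genes were picked from the matches after the search. Spag16 belongs to the central apparatus, Cfap206 to the radial spokes, Dnaaf2 and Cfap298 to dynein assembly, Dnai1 and Dnai2 to the outer dynein arm, Drc3 to the nexin-dynein regulatory complex and Tekt2 to the tektins. Dnaaf5 is an assembly factor, Spag5 a spindle protein and Dnah17 a dynein heavy chain of the sperm tail.
Spag16: GTTGCCGTAGTAAC
Cfap44: GTTGCTATGGCAAC
Cfap206: GTTTCCACGGTTAC
Dnaaf2: GTTACTATGGCAAC
Cfap298: GTTGCCCGGGCAAC
Dnai1: GTTGCTGGGTAAC
Dnai2: GTTGCTAGGCAAC
Drc3: GTTCCCCAGCAAC
Tekt2: GTTGCTCGGCAAC
Dnaaf5: GTTCCCTTGGAGAC
Spag5: GTAACCGGGGGAAC
Dnah17: GTCACCAGCGCAAC
Either form was present in 26 of the 76 members with a promoter in the table, or 34.2%, against 4.22% of all 27025 genes with one. The 14-base form alone was present in 16 of the 76 members, or 21.1%, against 2.49% of all genes, and the 13-base form in 10, or 13.2%, against 1.81%. Only 69.1% of the members had a promoter in the table, under the 80% needed to describe the set, so as a check of all members this comparison is void. Among 35 matched genes of intraflagellar transport and the BBSome, 22.9% held either form. Of the matched members tested, 13 of 33 with layer 2 above layer 3 at P3 held either form, as did 8 of 22 of the rest, so both shares, 39.4% and 36.4%, were close. The forkhead motif GTAAACA, also searched on both strands, was found in 4 of the 76 members, or 5.26%, against 4.05% of all genes. These matches are letters in a window and were not tested as binding sites.

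Of the 110 members, 82 had at least 1 TPM in at least 3 libraries and were tested with the rest of the transcriptome, 17606 genes in all. The other 28 stayed below that level, and 4 of them, Dnaaf6, Spag11a, Spag11b and Spag17os, were listed at 0 in all 12 libraries. Among those tested, Cfap221 alone reached 1 TPM only in P3 layer 2 libraries, so that its layer difference follows from the filter. A group mean of at least 5 TPM was reached by 56 members. Reads of near-identical copies may have been split or dropped in counting, so values of Rsph3a and Rsph3b, Dnah7a, Dnah7b and Dnah7c, Spag6 and Spag6l, and Dnaaf6 and Dnaaf6b are uncertain. The same holds for the antisense genes Dnah2os and Spag17os, since use of strand was not stated.

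**Figure D1:**
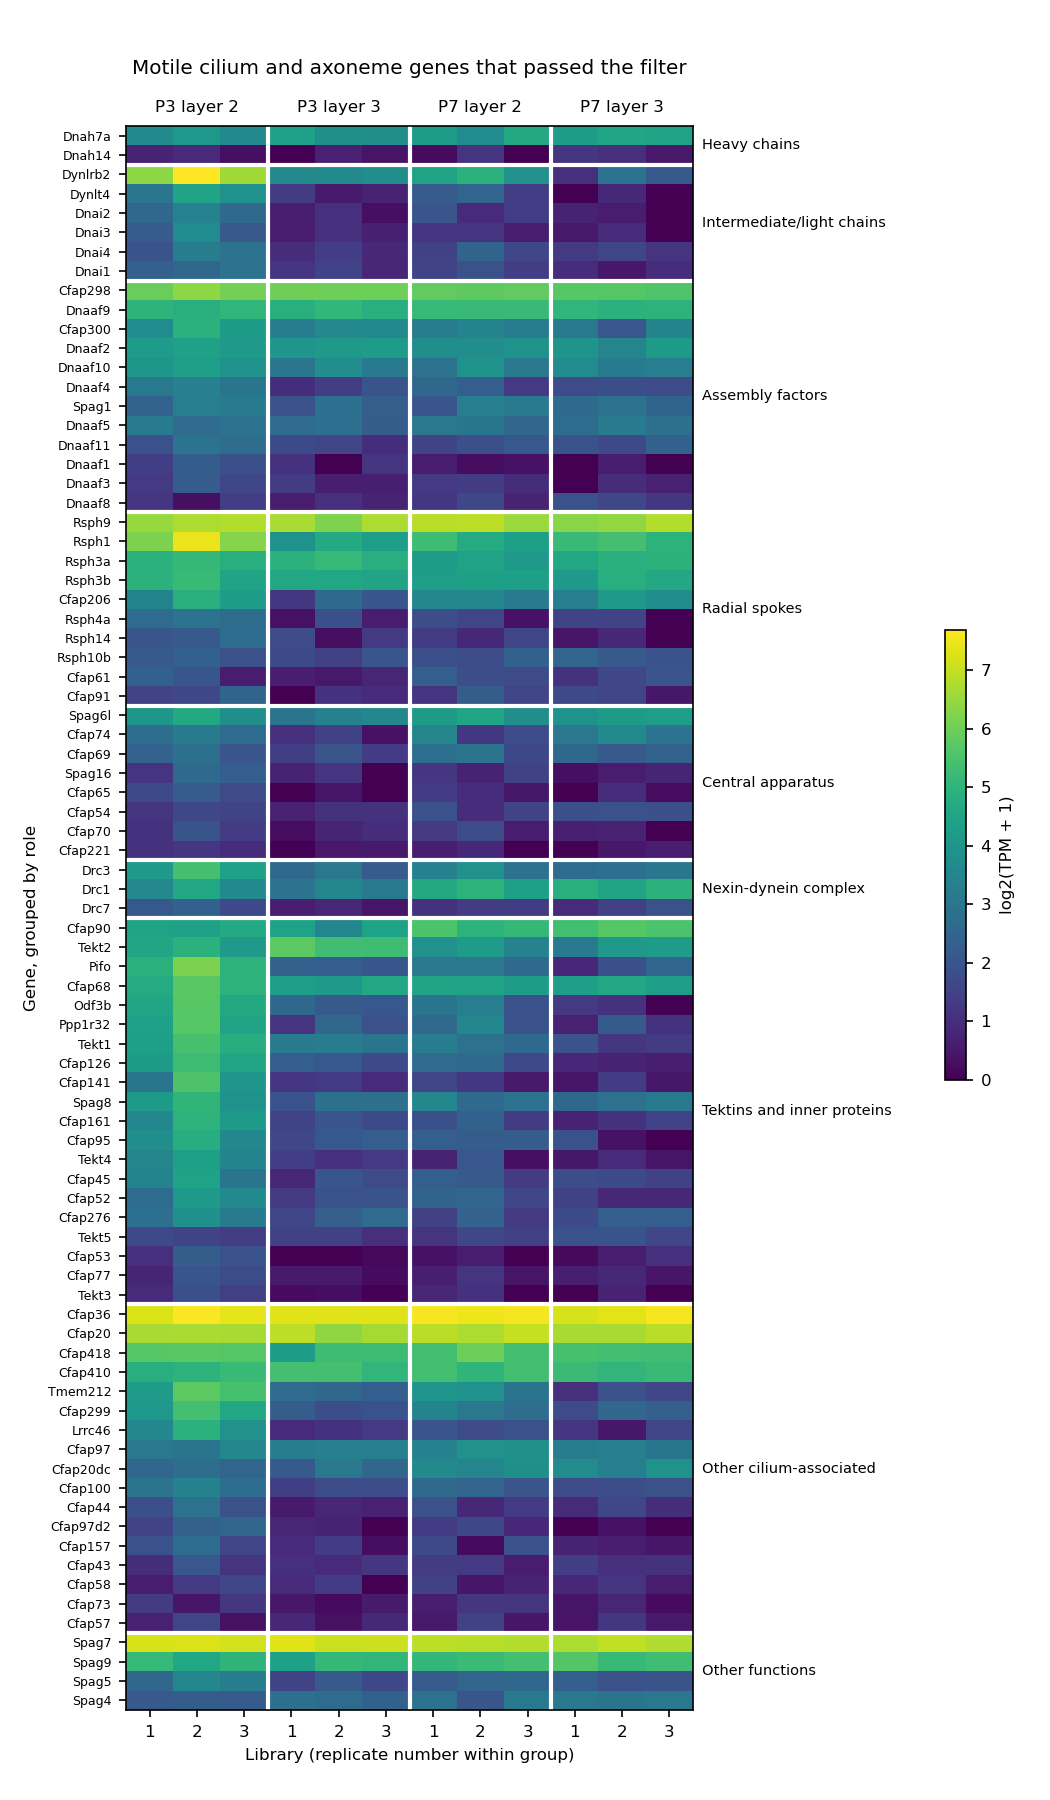
Level of the 82 tested members in each of the 12 libraries, as log2(TPM + 1) on the colour scale, with genes in rows grouped by role and libraries in columns grouped by age and layer. Many rows are brightest in the P3 layer 2 columns, most of all in replicate 2, while Cfap36, Cfap20, Spag7 and Rsph9 are bright in every column.

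At P3 most of the members that were measured well stood higher in layer 2 than in layer 3. The layer 2 libraries lay wholly above the layer 3 libraries for 53 of the 82 tested members, layer 3 lay wholly above for 2, and the ranges overlapped for 27. Over all 17606 genes tested, 16.0% had layer 2 wholly above and 11.0% had layer 3 wholly above. At P7 the layer 2 range lay above for 20 members and the layer 3 range for 2, with 60 overlapping, where 8.14% and 11.9% of all genes did so. All 7 members added by name count among those with layer 2 above at P3, the difference that put them into the rule. Without the 7, layer 2 lay wholly above for 46 of 75 tested members at P3 and for 14 at P7. The median layer difference of the tested members, as log2(TPM + 1), was 1.10 at P3 and 0.20 at P7, beside 0.06 and -0.04 over all genes. The 2 P3 exceptions were Tekt2 and Spag4, and the P7 exceptions were Rsph3a and Tekt5. In a pool of sorted cells, fewer cells of a type and less RNA per cell cannot be told apart.

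The 7 members added by name were put into the rule for this layer difference, so their values describe that choice. Some members taken by prefix reached similar sizes, with P3 log2 differences of 3.06 ± 0.51 for Cfap141 and 2.69 ± 0.33 for Cfap299. Both lie far above the median of 1.10 over the tested members. The prefix families were also chosen with the layer difference known. Dynlrb2, a roadblock-type dynein light chain abundant in ciliated tissue, was at 82.6, 206 and 94.6 TPM in the 3 P3 layer 2 libraries and at 11.2, 11.7 and 12.8 TPM in P3 layer 3. At P7 it was at 20.7, 29.4 and 13.8 TPM in layer 2 and at 1.10, 6.64 and 3.52 TPM in layer 3. Layer 2 was above layer 3 without overlap at both ages, and the log2 difference was 3.20 ± 0.43 (SE) at P3 and 2.36 ± 0.43 at P7. Its close relative Dynlrb1, which serves cytoplasmic dynein in all cells, lay between 661 and 1069 TPM throughout, with a layer difference of 0.04 ± 0.12 at P3.

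Pifo, a ciliary protein known in mouse from the embryonic node, was at 29.1, 71.2 and 30.1 TPM in P3 layer 2, at 4.13, 3.92 and 3.16 TPM in P3 layer 3, at 7.36, 7.36 and 5.23 TPM in P7 layer 2 and at 0.833, 2.69 and 4.69 TPM in P7 layer 3. Ppp1r32, a microtubule-associated protein of the axoneme, was at 20.2, 51.2 and 21.7 TPM in P3 layer 2 against 1.24, 4.75 and 2.72 TPM in P3 layer 3. Odf3b, a ciliary relative of an outer dense fiber protein of the sperm tail, was at 22.1, 50.3 and 24.4 TPM in P3 layer 2 against 5.05, 3.51 and 3.35 TPM in P3 layer 3. In all 3 genes the P3 layer 2 libraries stood apart and replicate 2 was the highest of its group. Their log2 differences at P3 were 3.11 ± 0.40, 3.01 ± 0.50 and 2.66 ± 0.43, in that order.

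Tmem212, a membrane protein gene used as a marker of ciliated cells, was at 17.8, 53.0 and 42.4 TPM in P3 layer 2 and at 5.43, 4.94 and 3.89 TPM in P3 layer 3. It kept a gap at P7, with 15.3, 13.8 and 6.73 TPM in layer 2 and 1.05, 2.75 and 2.08 TPM in layer 3. Lrrc46, needed in mouse for the sperm flagellum, was at 11.0, 29.3 and 13.7 TPM in P3 layer 2 and at 0.886, 1.19 and 1.42 TPM in P3 layer 3. Its P7 levels were low in both layers, at 3.07, 2.38 and 2.79 TPM and at 1.30, 0.415 and 2.02 TPM. Dynlt4, a Tctex-type dynein light chain, was at 7.10, 21.5 and 14.5 TPM in P3 layer 2 and at 1.60, 0.465 and 0.707 TPM in P3 layer 3. It was listed at 0 in 2 of the P7 layer 3 libraries, beside 3.64, 4.64 and 1.68 TPM in P7 layer 2.

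**Figure D2:**
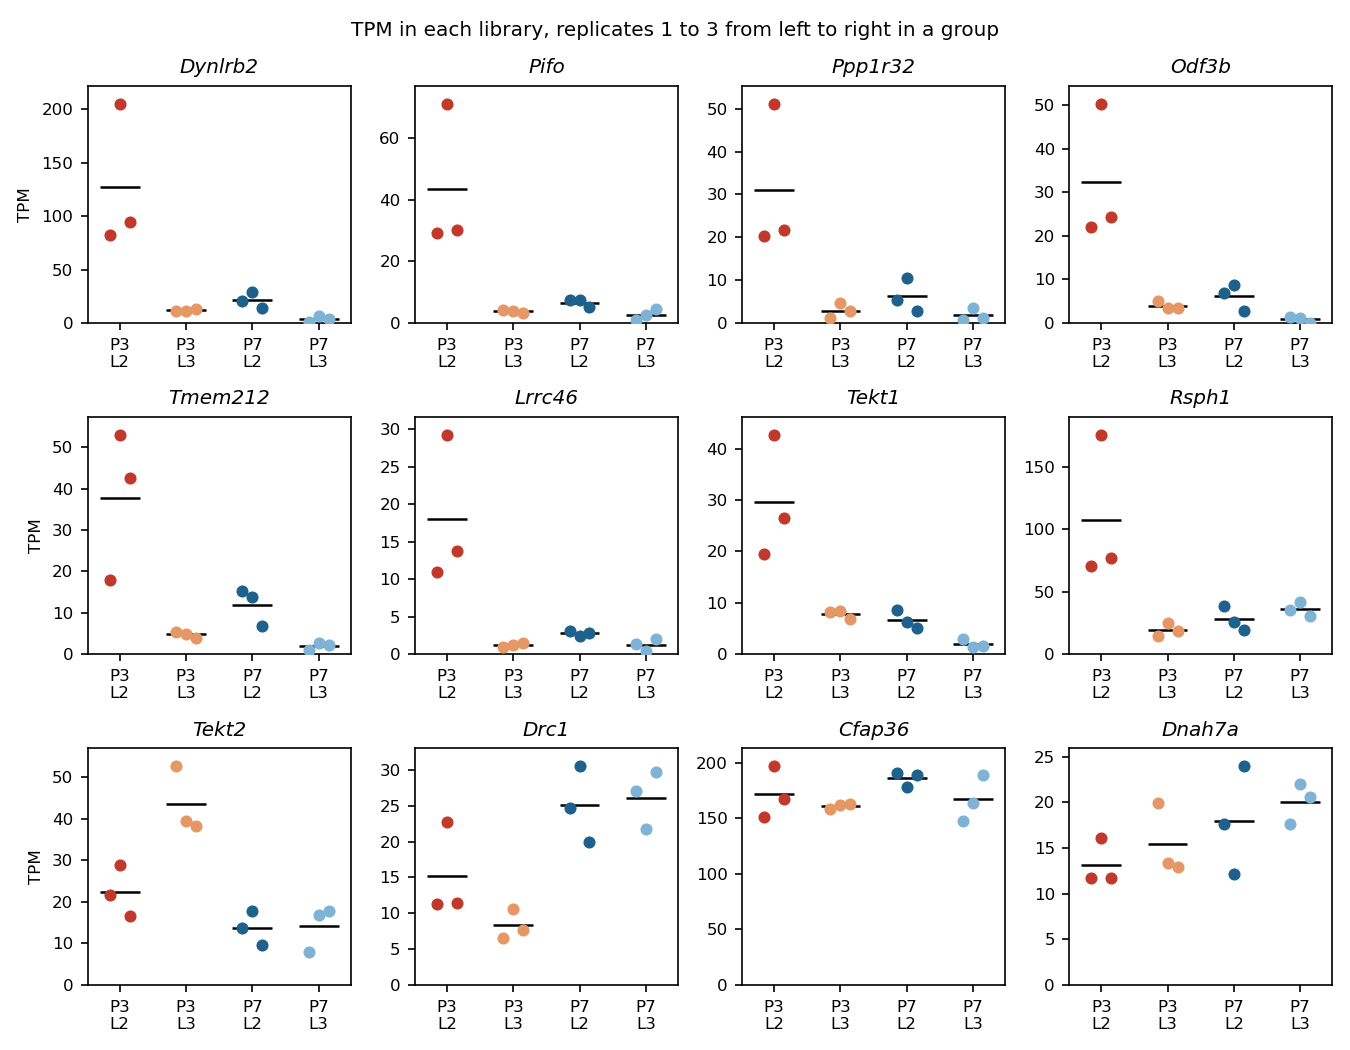
TPM of 12 members in each library, with 1 point per library, replicates 1 to 3 from left to right within each group of age and layer (L2 or L3), and a bar at each group mean. Dynlrb2 to Rsph1 are highest in P3 layer 2, Tekt2 is highest in P3 layer 3, Drc1 is higher at P7, and Cfap36 and Dnah7a show no layer gap.

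Replicate 2 of P3 layer 2 held the highest value of all 12 libraries for 51 of the 82 tested members, beside 2742 of all 17606 genes tested. Among the 53 members with layer 2 wholly above layer 3 at P3, its TPM was a median of 1.95 times the mean of the other P3 layer 2 libraries, with a range of 0.659 to 3.97, and it was the highest of its group in 49. Without it the median layer difference of the tested members at P3 was 0.88 on the log2(TPM + 1) scale, and 74 of the 82 were still higher in layer 2. The summed TPM of the 7 named members was 190, 482 and 242 in P3 layer 2, between 28.1 and 30.5 in P3 layer 3, 62.2, 76.9 and 35.8 in P7 layer 2, and between 6.36 and 18.0 in P7 layer 3.

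Among the dynein genes, all 6 intermediate and light chain genes had the P3 layer 2 libraries wholly above P3 layer 3. At P7 4 of the 6 still did. Over all genes tested, 16.0% did so at P3 and 8.14% at P7. Dynlrb2 and Dynlt4, counted here, were put into the rule for this difference. Dnai1 and Dnai2 encode intermediate chains of the outer dynein arm. Dnai1 was at 4.17, 5.05 and 6.59 TPM in P3 layer 2 against 1.25, 1.95 and 0.778 TPM in P3 layer 3. Dnai2 was at 5.02, 9.55 and 5.37 TPM in P3 layer 2 against 0.551, 1.05 and 0.240 TPM in P3 layer 3. Neither gene's P3 ranges overlapped. Of the 15 heavy chain genes, which encode the motor subunits, 13 did not reach the level needed for a test, so the chains cannot be compared. Dnah5, Dnah6 and Dnah12 of these also had P3 layer 2 wholly above P3 layer 3, at low levels. Dnah5, the outer arm heavy chain gene whose loss is a common cause of immotile cilia in people, lay at 0.522, 0.565 and 0.966 TPM in P3 layer 2 and at 0.238, 0 and 0.127 TPM in P3 layer 3. Dnah6 lay at 0.430, 1.30 and 0.714 TPM in P3 layer 2 and at 0, 0.246 and 0.152 TPM in P3 layer 3, and Dnah12 at 0.665, 0.628 and 0.914 TPM in P3 layer 2 and was listed at 0 in all 3 P3 layer 3 libraries. Dnah9, another outer arm heavy chain, went the other way, at 0.616, 0.626 and 0.740 TPM in P3 layer 2 and 1.48, 0.907 and 1.53 TPM in P3 layer 3. Dnah7a was the exception in level, at 11.7 to 24.0 TPM over all libraries, with overlapping ranges at both ages and with the uncertainty of its near-identical copies Dnah7b and Dnah7c, neither of which passed 0.656 TPM.

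Dynein assembly factors were mixed. Of 12 tested, 5 had P3 layer 2 wholly above P3 layer 3 and 7 overlapped, where 16.0% of all genes had layer 2 above. Cfap298, which takes part in preassembly of the dynein arms, was at 60.4, 82.8 and 66.1 TPM in P3 layer 2 and at 64.5, 62.3 and 62.3 TPM in P3 layer 3, and its ranges overlapped. Cfap300, a factor for the same step, was at 12.4, 29.2 and 17.3 TPM in P3 layer 2 and at 8.35, 11.3 and 11.8 TPM in P3 layer 3, and its ranges did not. Dnaaf9 stayed between 27.1 and 35.0 TPM in all libraries.

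Among the radial spoke genes, 5 of 10 tested were wholly higher in layer 2 at P3, where 16.0% of all genes were. Rsph1, a spoke head protein whose loss causes ciliary dyskinesia in people, was at 70.7, 176 and 76.7 TPM in P3 layer 2 and at 14.1, 24.9 and 18.5 TPM in P3 layer 3. At P7 it stood at 38.8, 25.8 and 19.1 TPM in layer 2 and at 35.3, 41.5 and 30.4 TPM in layer 3, so the groups overlapped and the mean was on the layer 3 side. Cfap206, at the spoke base, had the same shape, with 9.97, 28.7 and 17.9 TPM against 1.38, 5.31 and 3.20 TPM at P3, and 10.8, 11.1 and 8.28 TPM against 8.79, 16.6 and 12.7 TPM at P7. Rsph9, another spoke head protein, lay between 72.0 and 121 TPM in all libraries with no layer gap.

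Central apparatus genes had layer 2 wholly above layer 3 in 8 of 8 tested at P3 and in 0 of 8 at P7. Over all genes tested the shares were 16.0% and 8.14%. With so few genes, 0 at P7 cannot be told apart from that share. Spag6l, a close homologue of a central apparatus protein of the algal flagellum, was at 15.8, 24.5 and 13.2 TPM in P3 layer 2 and at 6.79, 9.46 and 10.8 TPM in P3 layer 3, but at 13.1 to 22.4 TPM and 14.6 to 19.0 TPM in the P7 groups. Cfap74 had its higher P7 mean in layer 3, with 10.4, 1.37 and 2.55 TPM in layer 2 and 7.21, 11.9 and 6.69 TPM in layer 3, which overlapped. Cfap46, Cfap47, Spag17 and Spag6 were not tested. Of the non-member Hydin, a large central apparatus protein whose loss causes hydrocephalus in mouse, no library held more than 0.345 TPM. The 3 genes of the nexin-dynein regulatory complex were all wholly higher in P3 layer 2, and 0 of 3 were at P7. Those 3 are likewise too few to set against 8.14% of all genes at P7.

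Tektins and doublet inner proteins held the largest block of layer 2 genes, 17 of 20 tested at P3 and 6 of 20 at P7. Over all genes tested the shares were 16.0% and 8.14%. Pifo, Odf3b and Ppp1r32, counted among the 17, were put into the rule for this difference. Tekt1 was at 19.5, 42.8 and 26.4 TPM in P3 layer 2 and at 8.26, 8.45 and 6.89 TPM in P3 layer 3, and stayed apart at P7. Cfap126, which positions basal bodies in mouse and binds the doublet, was at 17.2, 37.5 and 22.0 TPM in P3 layer 2 and at 3.91, 3.31 and 2.33 TPM in P3 layer 3. Tekt2 ran the opposite way, at 21.8, 28.9 and 16.7 TPM in P3 layer 2 and at 52.8, 39.5 and 38.3 TPM in P3 layer 3, with overlapping values of 7.94 to 17.9 TPM over all P7 libraries. Tekt1 and Tekt2 thus had opposite layer orders in the same P3 libraries.

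Of the other cilium-associated members, 8 of 17 tested were wholly higher in P3 layer 2, where 16.0% of all genes were. Tmem212 and Lrrc46, counted among the 8, were put into the rule for this difference. Cfap36 at 148 to 197 TPM, Cfap20 at 83.6 to 127 TPM and Cfap410 at 27.1 to 41.6 TPM, none of which is limited to motile cilia, were steady over the libraries, and their P3 ranges overlapped. Members that carry a Spag symbol but are known for other work were few. Spag5, the mitotic spindle protein astrin, was wholly higher in P3 layer 2 at 4.76, 10.9 and 8.45 TPM against 1.99, 3.43 and 2.20 TPM, while Spag4, a nuclear envelope protein, was wholly lower at 3.39, 3.87 and 3.67 TPM against 6.12, 5.57 and 4.22 TPM.

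**Figure D3:**
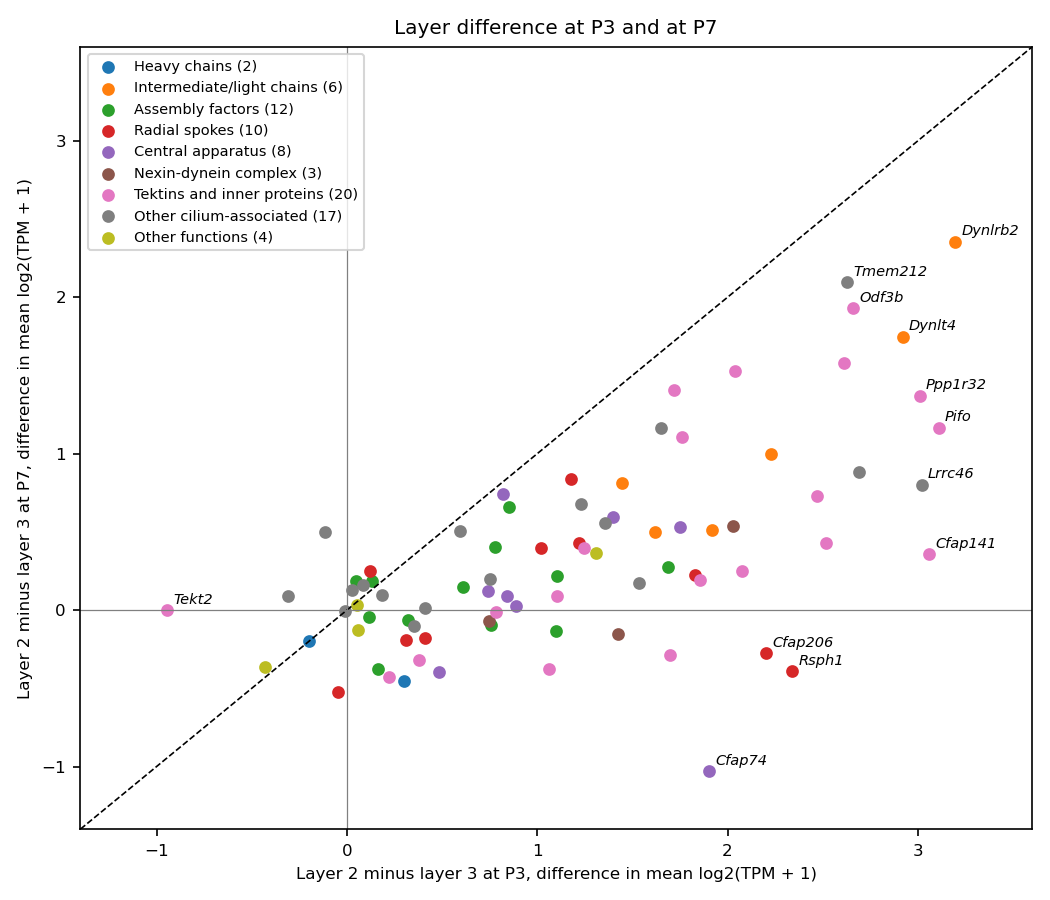
Layer 2 minus layer 3 difference in mean log2(TPM + 1) at P3 (horizontal) and at P7 (vertical) for the 82 tested members, with 1 point per gene coloured by role and a dashed line of equal difference. Most points lie to the right of 0 and below the line, with Dynlrb2 at 3.20 and 2.36, Rsph1 at 2.34 and -0.39, and Tekt2 at -0.94 and 0.00.

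Cilium genes outside the member set were read from lists chosen with earlier results of these data known, so they give no independent support. With limma on log2(TPM + 1) and Benjamini-Hochberg adjustment over all tested genes, the P3 layer 2 libraries had 4.87% of genes called higher than layer 3 and 4.18% lower. Of 53 other motile axoneme genes tested, 33 were called higher and 0 lower, with a median log2 difference of 1.45. Meig1, needed in mouse to form the sperm tail, was at 50.8, 153 and 68.2 TPM in P3 layer 2 against 7.93, 9.83 and 10.2 TPM in P3 layer 3, a log2 difference of 3.00 ± 0.33 (SE, adjusted p = 0.000317). Lrrc23, a radial spoke protein, differed by 2.90 ± 0.49 (limma, adjusted p = 0.00321), and Fam183b by 2.84 ± 0.36 (limma, adjusted p = 0.000677). Ccdc39 and Ccdc40, which together set the spacing of the axonemal repeat, were not called, at 0.13 ± 0.19 and 0.64 ± 0.31.

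Of 13 regulators of multiciliation tested, 7 were called higher in P3 layer 2 and 0 lower, where 4.87% and 4.18% of all genes were. The 7 were Foxj1, Myb, Deup1, Gmnn, Rfx2, E2f5 and Mcidas. Foxj1, the forkhead factor that drives motile cilium genes, was at 33.1, 85.0 and 31.9 TPM in P3 layer 2 and at 2.79, 7.96 and 5.10 TPM in P3 layer 3, a log2 difference of 2.95 ± 0.39 (limma, adjusted p = 0.000795). Deup1, which builds the deuterosome that multiplies centrioles, differed by 2.41 ± 0.53 (limma, adjusted p = 0.0132). Myb differed by 2.05 ± 0.33 (limma, adjusted p = 0.00262). Gmnc, the upstream geminin relative, stayed at or below 1.41 TPM and was not tested, and Rfx3 was not called at 0.54 ± 0.23. Without replicate 2 of P3 layer 2 the calls over all 4 lists went from 47 to 26, and Mcidas at 0.96 (adjusted p = 0.193), Rfx2 at 1.17 (adjusted p = 0.118) and Deup1 at 1.86 (adjusted p = 0.0667) were not called in the limma fit. The call of Mcidas ended under 16 alternatives in all, among them the replicate block and leaving out any of several other libraries, that of Rfx2 under 6 and that of Deup1 under 1.

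Genes shared with the primary cilium and with cytoplasmic transport gave few calls. Of 41 genes of intraflagellar transport and the BBSome, 4 were called higher in P3 layer 2 and 1 lower, with a median of 0.05. Ift80, Bbs2 and Hspb11 were among the 4, at 1.50 ± 0.33, 1.07 ± 0.30 and 0.60 ± 0.14, and Kif17, a kinesin of cilia and dendrites, was the 1 lower at -1.36 ± 0.38. Of 22 genes of cytoplasmic dynein and dynactin, 0 were called higher, and the dynactin genes Dctn1 and Dctn2 were called lower, at -0.55 ± 0.16 and -0.40 ± 0.11. The calls of Ift80, Bbs2, Kif17, Dctn1 and Dctn2 each ended without replicate 2 of P3 layer 2, with limma adjusted p of 0.0565, 0.131, 0.165, 0.165 and 0.142, and that of Hspb11 ended without replicate 3 of P3 layer 2 (limma, adjusted p = 0.0851). Over all alternatives the call ended under 4 for Ift80 and for Hspb11, 13 for Bbs2, 12 for Kif17 and for Dctn2, and 15 for Dctn1.

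At P7 none of the 129 tested genes of the 4 lists was called between the layers in the limma fit, and 22 (17.1%) had an unadjusted p under 0.05, where 9.92% of all genes did, while limma with array weights called 5. Over all genes 0.119% were called higher in the limma fit and 0.381% lower. The change of the layer difference between the ages was called for 0 of the 129 as well in the limma fit without weights. In that fit 0.0625% of all genes were called higher and 0.119% lower. An unadjusted p under 0.05 was found for 37 (28.7%), beside 11.4% of all genes. With array weights 26 were called. The share of all genes called with array weights is not given for either comparison, so those counts have no background. For Foxj1 the layer difference was 1.34 ± 0.39 at P7 (limma, adjusted p = 0.189), and the difference from P3 was 1.62 ± 0.55 (limma, adjusted p = 0.263). A call at P3 and none at P7 thus does not show that the layer difference of these genes changed.

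Between the ages, 27 of the 82 tested members were called lower at P7 and 4 higher in the limma fit over all genes, with the age difference averaged over the layers, where 12.8% of all genes were called lower and 23.6% higher. That mean contains the P3 layer 2 libraries, in which the members were chosen as high, so these counts describe the members and support nothing about them. Within layer 2 alone, 31 were called lower at P7 and 1 higher, with a median of -0.71, where 9.33% of all genes were called lower and 15.0% higher. Within layer 3, 6 were called lower and 7 higher, with a median of 0.07 beside 0.17 over all genes, where 6.42% of all genes were called lower and 14.4% higher. In the mean over the layers the median of the tested members was -0.33 on the log2 scale, beside 0.10 over all genes. Calls lay among the dynein intermediate and light chains, where 5 of 6 were lower, and among the tektins and doublet inner proteins, where 13 of 20 were lower and 1 higher. Assembly factors had 3 of 12 lower, radial spokes 2 of 10, the other cilium-associated genes 3 of 17 with 1 higher, and the central apparatus 0 of 8 in either direction, where 3 (37.5%) had an unadjusted p under 0.05 beside 45.7% of all genes.

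Among the tested members the fall was largest for Dynlrb2, at -2.05 ± 0.30 (SE). Odf3b fell by 1.86 ± 0.30, Cfap126 by 1.81 ± 0.24, Tekt1 by 1.80 ± 0.21 and Cfap141, a doublet inner protein, by 1.72 ± 0.36. The P3 layer 2 libraries entered the choice of members, so these falls are descriptions and no p-value is set beside them. Tekt1 and Dynlrb2 were lower at P7 in both layers, Tekt1 by 1.95 ± 0.30 in layer 2 and 1.64 ± 0.30 in layer 3. In some other genes the estimated age difference was larger in layer 2. Lrrc46 differed by -2.23 ± 0.36 in layer 2 and by -0.01 ± 0.36 in layer 3, and Cfap141 by -3.07 ± 0.51 and -0.37 ± 0.51. The change of the layer difference between the ages was called for 1 of the 82 members, where 0.0625% of all genes were called higher and 0.119% lower. Neither Lrrc46 nor Cfap141 was called, so an age difference limited to layer 2 was not shown for them. Within layer 2 the P3 range lay wholly above P7 for 39 of the 82 members and below for 4, against 20.3% and 26.3% of all genes. Within layer 3 the counts were 10 and 18, against 11.3% and 23.2%. These within-layer values share libraries with the layer contrasts and are descriptions.

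The members called higher at P7 were Drc1, Cfap20dc, Cfap90 and Spag9. As with the falls, these rises are descriptions and no p-value is set beside them. Drc1, a base subunit of the nexin-dynein regulatory complex, rose by 1.15 ± 0.19. It went from 11.3, 22.8 and 11.4 TPM to 24.7, 30.6 and 19.9 TPM in layer 2. In layer 3 it went from 6.63, 10.7 and 7.68 TPM to 27.0, 21.7 and 29.7 TPM. The ranges overlapped in layer 2 and were apart in layer 3. Cfap90, a doublet inner protein, rose by 1.03 ± 0.17, from 20.9, 20.0 and 24.9 TPM to 44.9, 30.1 and 33.7 TPM in layer 2. Cfap20dc rose by 1.04 ± 0.18 with a layer difference of -0.01 ± 0.26 at P3. Spag9, a scaffold that links motors and kinase signalling, was at 0.41 ± 0.15. Its call ended under 15 alternatives, among them leaving out any of several single libraries. Cfap299 fell by 0.70 ± 0.23, also a description, and 8 alternatives ended its call, among them no filter and leaving out any of 6 single libraries.

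**Figure D4:**
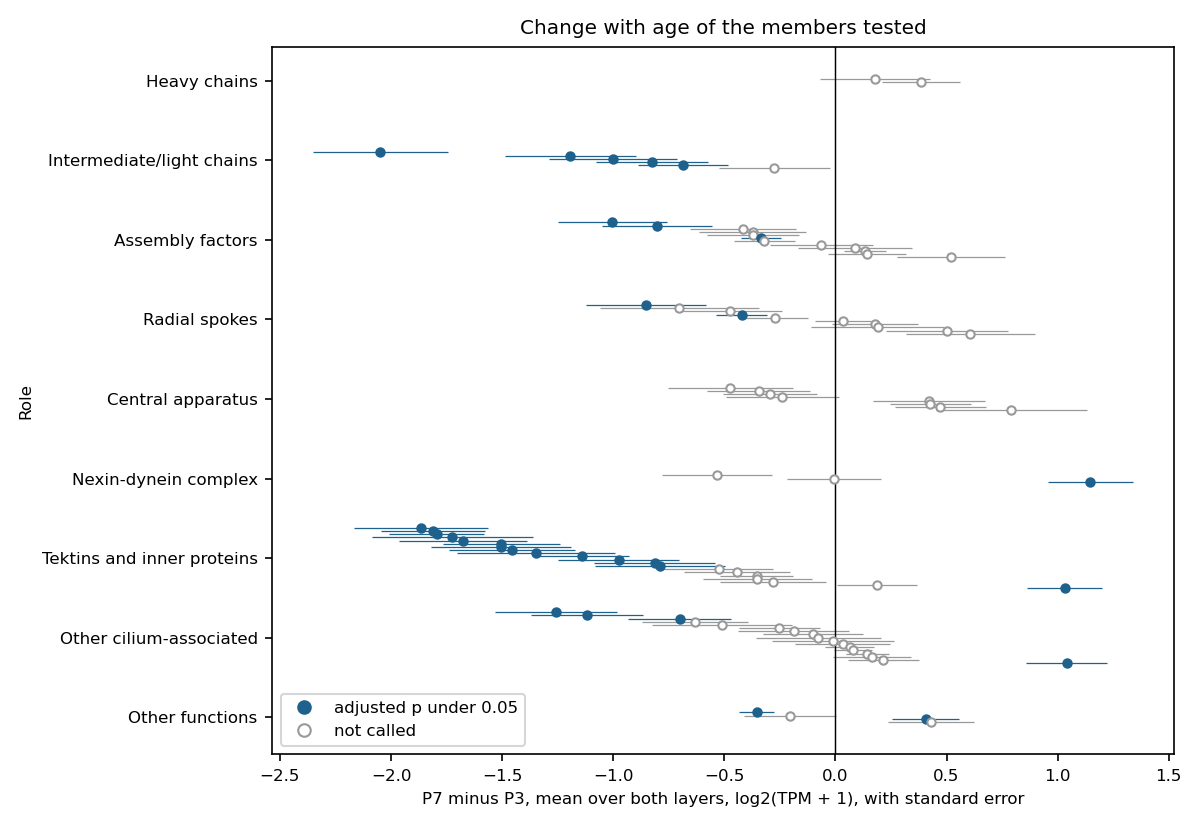
P7 minus P3 difference in log2(TPM + 1), averaged over both layers, for the 82 tested members by role, with 1 point per gene, bars of 1 standard error and filled points at an adjusted p under 0.05. The filled points lie below 0 for 27 genes and above 0 for Drc1, Cfap20dc, Cfap90 and Spag9.

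The list genes outside the set were read in the same comparison, where 23.6% of all genes were called higher and 12.8% lower. Of the 53 other motile axoneme genes, 17 were called lower at P7 and 4 higher, with Lrrc23 at -1.49 ± 0.35, Dnali1 at -1.34 ± 0.24 and Meig1 at -1.32 ± 0.24 on the lower side and Tppp3 at 0.98 ± 0.16 and Ccdc39 at 0.90 ± 0.14 on the higher. Of the 13 regulators, 6 were called lower, with Foxj1 at -1.31 ± 0.27 (limma, adjusted p = 0.00215), and Rfx3 was called higher at 1.01 ± 0.16 (limma, adjusted p = 0.000288). Of the 41 genes of intraflagellar transport and the BBSome, 13 were called higher and 4 lower, and of the 22 genes of cytoplasmic dynein and dynactin, 10 were called higher and 1 lower. Dynlrb1 was the 1 lower gene, at -0.35 ± 0.09.

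Markers of several other cell types were also called higher in P3 layer 2, where 4.87% of all genes were. All 8 ependymal markers were tested and 6 were called higher in P3 layer 2, with summed levels of 125 to 281 TPM in P3 layer 2, 30.4 to 45.1 TPM in P3 layer 3, 28.4 to 87.5 TPM in P7 layer 2 and 14.9 to 21.0 TPM in P7 layer 3. Foxj1 stands in that list and among the regulators. Of these 8, Sntn alone was listed at 0 in all P7 layer 3 libraries. All 10 radial glia markers and all 8 cell cycle genes were also called higher in P3 layer 2, at summed levels of 4425 to 7172 TPM against 764 to 1995 TPM and of 327 to 452 TPM against 86.3 to 136 TPM. At P7 radial glia markers summed to 1140 to 3149 TPM in layer 2 and 463.5 to 1703 TPM in layer 3. Cell cycle genes summed to 78.7 to 162 TPM and 29.8 to 77.8 TPM. In P3 layer 2, P3 layer 3 and P7 layer 2, replicate 2 held the highest radial glia sum of its group, at 7172, 1995 and 3149 TPM. It also held the highest sum of the 7 named members there, at 482, 30.5 and 76.9 TPM. In P7 layer 3 replicate 1 held the highest radial glia sum of its group, 1703 TPM, and the lowest sum of the 7 named members, 6.36 TPM. Fabp7, a radial glia lipid carrier, was at 4290, 6367 and 3759 TPM in P3 layer 2 against 655, 1666 and 878 TPM in P3 layer 3. The part of these cell types, and of those that follow, in the results was not tested.

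Glial markers also stood higher in P3 layer 2. Of 10 astrocyte markers 5 were called higher and 0 lower at P3, with all 10 positive and a median log2 difference of 1.74, and they summed to 502 to 590 TPM in P3 layer 2 against 121 to 323 TPM in P3 layer 3. Of 8 oligodendrocyte lineage markers 2 were called higher and 0 lower, with all 8 positive and a median of 1.52, and they summed to 377 to 412 TPM against 75.6 to 238 TPM. Both lists had their highest sums at P7, astrocyte markers at 1189 TPM in replicate 2 of layer 2 and oligodendrocyte lineage markers at 999 TPM in replicate 1 of layer 3, where the 7 named members summed to 76.9 and 6.36 TPM. Of 8 interneuron markers 2 were called higher and 0 lower at P3. None of 8 microglia, 4 vascular and 4 choroid plexus markers tested was called or had an unadjusted p under 0.05 between the layers at P3 in the limma fit, with microglia sums of 1182 to 2498 TPM in P3 layer 2 and 752.5 to 1328 TPM in P3 layer 3. The choroid plexus sum was highest in replicate 1 of P3 layer 3 at 263 TPM, of which Ttr gave 234 TPM, while the 7 named members summed to 29.5 TPM there.

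**Figure D5:**
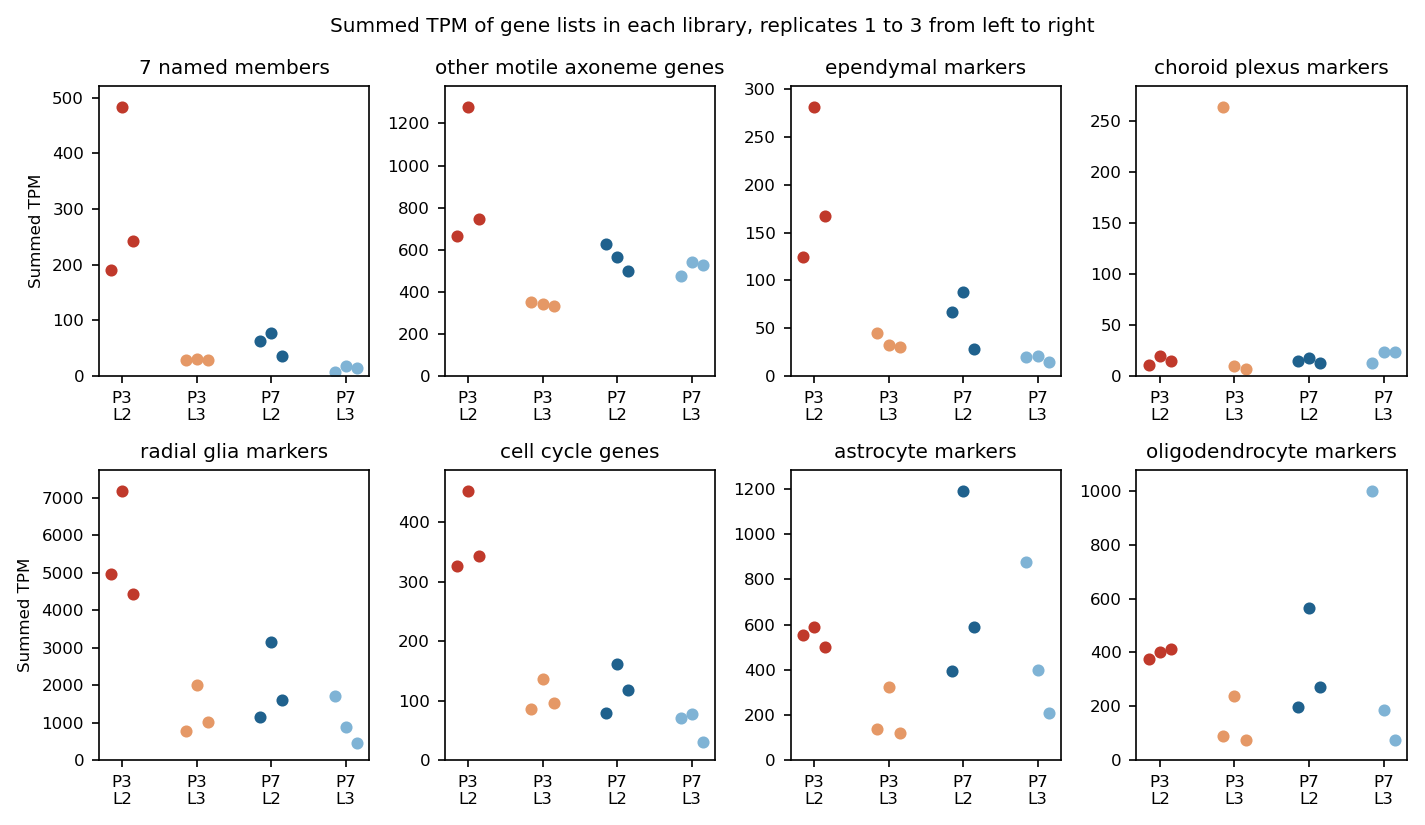
Summed TPM of 8 gene lists in each library, with 1 point per library and replicates 1 to 3 from left to right within each group, each panel on its own linear axis from 0. The 7 named members and the ependymal markers peak in replicate 2 of P3 layer 2 at 482 and 281 TPM, and the astrocyte and oligodendrocyte markers peak in P7 libraries.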

How the data were processed

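RNA from sorted cells of 2 to 3 pooled pups per library was extracted with RNeasy columns and made into libraries with the SMART-Seq mRNA LP kit, per the labels' protocols. HISAT2, StringTie and featureCounts with the GRCm39 build are named, without versions, per the submitters' processing notes. Multi-mapped reads, strand use and filters are not given in the sources used here. The authors deposited 1 table of TPM values for 12 libraries, each column summing to 1000000, so depth and counting error are unknown.

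Genes that reached 1 TPM in 3 or more libraries were fitted as log2(TPM + 1), with 1 mean per group, in limma 3.58.1 (R 4.3.3) with a trended prior, and p-values were adjusted by Benjamini-Hochberg over all tested genes and called under 0.05. Log2 differences understate changes of low genes. The step was tested on simulated data. The members, their roles and the 4 pathway and 10 marker lists were chosen with earlier results of these data known. Values of single genes were printed for the 7 named members, members with at least 5 TPM in a group (up to 25), called members (up to 5 per direction), up to 3 called genes per list and direction, and a few regulators and markers. Other genes shown as examples of a role (Dnai1, Dnai2, Dnah5, Dnah6, Dnah7a, Dnah9, Dnah12, Cfap206, Cfap74, Cfap300, Spag6l, Spag4, Spag5, Gmnn and E2f5) were chosen after their values were seen. Exact permutation of 3 against 3 libraries cannot go below p = 0.1 and was not used. Alternatives changed the pseudocount, filter, scaling, weights, moderation, replicate block, call and libraries. Whether pools came from separate litters is not stated. Promoter sequences were matched by symbol, or by synonym for Dnai1 and Dnai2, to RefSeq (GRCm38.p6), and that build differs from the build of the deposited table. Promoters of 34 members were not in the table.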

Additional observations from a re-analysis of the deposited data

How the results depend on the processing

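With an absolute log2 difference of at least 1 also required, members called between the ages numbered 19 in place of 31 and list genes 14 in place of 56. List genes called between the layers at P3 numbered 47, against 31 with the filter at 5 TPM and 73 with array weights. At P7 the count of 0 became 1 with a pseudocount of 5, 5 with array weights and 1 without the first replicates of P3 layer 3 and P7 layer 3, an alternative chosen after seeing the data. The count of 0 for the change of the layer difference became 1 with a pseudocount of 5 and 26 with array weights. The cause was not tested. Shares of all genes called under the alternatives are not given, so these counts stand without a background.

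Leaving out each library in turn gave 26 to 33 members called between the ages, 26 to 47 list genes between the layers at P3 (26 without replicate 2 of P3 layer 2), 0 to 1 at P7, 0 to 3 for the change (3 without replicate 2 of P3 layer 3) and 47 to 62 between the ages. The replicate block gave 30 members between the ages and 46, 0, 0 and 54 list genes in the same order. Correlations between libraries of the same number ran from -0.19 to 0.21, with 5 of 18 over 0.1. Those of other numbers ran from -0.27 to 0.28, with 5 of 36 over 0.1. These values do not settle whether libraries were paired. Median-ratio scaling moved the median age difference of all genes from 0.10 to -0.01. No call of a named gene changed direction under any alternative run. TPM sets no limit from depth, and 28 members were too low to test.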
